A study of Mus musculus with 35 samples.

Results

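The genes described here are 10 genes of MHC class I antigen presentation: *H2-K1*, *H2-D1*, *B2m*, *Tap1*, *Tap2*, *Tapbp*, *Psmb8*, *Psmb9*, *Nlrc5* and *Erap1*. They were taken by name from the 53465 genes of the count table, each symbol by the identifier with the most counts, and all 10 passed the filter on low counts in every comparison. RNA-seq was performed on 35 libraries of sorted tumor cells from KC-shSmad4 lines, which are mouse PDAC lines with Ptf1a-Cre, expressed in pancreatic cells, an rtTA3-IRES-mKate2 allele at *Rosa26* and a Dox-inducible, GFP-linked shRNA against *Smad4* at *Col1a1*. All libraries share these alleles and a luciferase vector. The cells came from ES cells of a mixed C57BL/6J and 129 background and were grown in female Foxn1nu athymic nude mice, whose thymus makes no T cells while other immune cells remain. Primary tumors followed orthotopic injection, liver metastases intrasplenic injection and lung metastases tail-vein injection. By the study's methods, mice of the Smad4 off group stayed on Dox, mice of the Smad4 on group had Dox withdrawn once tumors had formed, and mKate2+ cells were sorted 7 or 14 days later, so that Dox itself cannot be told apart from the label. On day 7 there were 3 pancreas libraries labelled off and 2 labelled on, 2 and 3 from liver, and 4 and 2 from lungs. On day 14 there were 2 and 3 from pancreas, 3 and 3 from liver, and 4 and 4 from lungs.

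MHC class I molecules show peptides from inside the cell to CD8 T cells, and natural killer cells are restrained by them. Proteasomes cut proteins into peptides, the TAP transporter moves these into the endoplasmic reticulum, tapasin holds TAP beside empty class I molecules, and ERAP1 trims the peptides to length. A heavy chain, such as the one encoded by *H2-K1* or *H2-D1*, then leaves for the cell surface with β2-microglobulin (*B2m*) and a peptide. Interferon-γ induces nearly all of these genes, and NLRC5 is the transcriptional coactivator of class I promoters. Carcinoma cells often carry little surface class I.

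*Smad4*, the gene that the shRNA targets, went against the labels. Its level was 14.8 to 22.4 CPM (counts scaled to the library total after TMM) in the 17 libraries labelled Smad4 on and 69.9 to 143 CPM in the 18 labelled Smad4 off, without overlap. Whether the labels were exchanged cannot be told from the files, and if they were, every label difference below would have the opposite sign with respect to Dox. Libraries are therefore named by their label throughout, and every difference is the libraries labelled on minus those labelled off. Library totals were 11885461 to 43571007 counts, so that 3 counts, the floor of detection by counting error alone, correspond to 0.0684 to 0.239 CPM on this scale. In 10 libraries, all from liver or lungs, *mt-Co3* had counts, and in the other 25 it had none. The single paired-end library, liver labelled off replicate 2 of day 7, stood apart by its markers. Its 7 epithelial markers summed to 3813 CPM against 12310 to 17690 in the other 10 liver libraries, its 7 fibroblast markers to 35780 CPM against 254.7 to 4307, and its 7 acinar markers to 409 CPM against 4.93 to 16.9. The epithelial sum lay in the range of the pancreas libraries (2602 to 7890 CPM). So did the lung epithelial sum (9.91 CPM against 8.09 to 65). The hepatocyte sum (1.53 CPM) was just under theirs (1.56 to 11.2). The fibroblast sum was above theirs (8783 to 24250) and the acinar sum below theirs (744.5 to 3473). The liver group labelled off of day 7 holds only this library and replicate 1. Whether this library holds liver tumor cells was not tested. The keratin and other epithelial markers were present in all 35 libraries (2602 to 17690 CPM summed).

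The 10 genes lie on 4 chromosomes in the GRCm38 coordinates of the count table, 7 of them in the MHC on chromosome 17. These 7 are *Tapbp* (chr17:33915899-33929288, plus strand), *H2-K1* (chr17:33996017-34000333, minus strand), *Psmb9* (chr17:34181988-34187764, minus strand), *Tap1* (chr17:34187553-34197225, plus strand), *Psmb8* (chr17:34197721-34201454, plus strand), *Tap2* (chr17:34203527-34216321, plus strand) and *H2-D1* (chr17:35262730-35267499, plus strand). The others are *B2m* (chr2:122147686-122153083), *Nlrc5* (chr8:94434356-94527272) and *Erap1* (chr13:74639568-74693201), all on the plus strand. *Tap1* and *Psmb9* overlap at their starts on opposite strands, and whether reads were counted by strand is not given in the sources used here. Of the 75-base windows of GENCODE M21 transcripts, 3.1% of those of *H2-K1* and 5.56% of those of *H2-D1* also occur in a transcript of another gene, mainly other class I genes, so that these counts are uncertain to that extent. The share was 0 for *B2m*, *Tap1* and *Psmb9*, 0.0462% for *Nlrc5*, 8.27% for *Tap2*, 9.97% for *Psmb8*, 10.4% for *Erap1* and 18.6% for *Tapbp*, in the last 4 cases through overlapping or readthrough gene models.

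Class I promoters are known for a shared set of short elements, and these are shown because the heavy chains and *B2m* are induced through them. RefSeq promoters of build GRCm38.p6 were at hand for 8 of the 10 genes. Capitals mark the matches found on either strand in the 250 bases before the RefSeq start. In *H2-K1* these are, in order, an NF-κB motif (GGG and TCCC with 3 bases between, which matches in 2 overlapping frames), an interferon-stimulated response element core (GAANNGAAA, here on the other strand), the X2 box (TGACG) and the Y box (ATTGG). The *H2-K1* stretch is chr17:34000351-34000466, printed along the minus strand, and the *B2m* stretch is chr2:122147601-122147646 on the plus strand.
H2-K1: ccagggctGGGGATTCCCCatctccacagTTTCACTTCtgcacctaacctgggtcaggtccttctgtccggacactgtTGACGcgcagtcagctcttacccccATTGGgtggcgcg
B2m: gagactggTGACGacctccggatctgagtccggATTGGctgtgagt
An X2 box followed by a Y box after 15 to 25 bases, a range that includes the spacing in both stretches, occurred in 0.429% of the 27025 genes of the promoter table and in 3 of the 8 genes described here, *H2-K1*, *H2-D1* and *B2m*. As the range holds the spacing of these genes, their share is a description and not a test. *H2-D1* holds all 4 motifs, and 104 of the 116 bases shown for *H2-K1* (89.7%) recur in it without a gap. The response element core occurred in 7.3% and the NF-κB motif in 5.44% of genes with a promoter, and among the 8 only the heavy chains held them. *Tap1* and *Psmb9* start 225 bases apart in opposite directions, and the stretch between holds one TGACG (19.8% of genes) and one ATTGG (37.5%). The palindromic SMAD element GTCTAGAC, at 0.2% of genes, was in none of the 8. These matches are letters in a window and are not bound sites.

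Per length of transcript, the structural chains were the most abundant. The median RPKM over 35 libraries, computed from CPM and the union of GENCODE M21 exons, was 605 for *B2m*, 299 for *H2-D1*, 162 for *H2-K1*, 48.9 for *Tapbp*, 8.76 for *Erap1*, 5.01 for *Tap2*, 4.63 for *Tap1*, 4.28 for *Psmb8*, 2.03 for *Psmb9* and 0.503 for *Nlrc5*. The genes of lowest level had the widest range. *Nlrc5* went from 0.109 to 3.7 RPKM and *Psmb9* from 0.616 to 8.48, whereas *Erap1* went from 4.8 to 14.9 and *Tapbp* from 32.5 to 93.3. *Erap1*, *Tap2*, *Tap1* and *Psmb8* overlapped in their ranges, and their order is not separated by the spread between libraries.

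Class I genes stood higher in libraries labelled Smad4 on, those with less *Smad4* mRNA, when the 6 organ and day comparisons were averaged with equal weight. All 10 genes had positive differences, and 9 of the 10 passed an adjusted p of 0.05, all higher, against 12.8% of the 17547 genes tested. *Psmb9*, the inducible β1i subunit of the immunoproteasome, was higher by 1.22 ± 0.21 on the log2 scale (SE, adjusted p = 0.000101), and *Nlrc5* by 1.26 ± 0.26 (adjusted p = 0.000724). These were the 2 genes that also passed a fold change of 2, with 3.44% of all genes called higher. Each p came from a quasi-likelihood F-test in edgeR, adjusted by Benjamini and Hochberg's method across every gene tested, and rests on the spread between libraries within groups. That spread holds differences between mice, between libraries with and without *mt-Co3* counts, and of the paired-end library. *Erap1* gave 0.24 ± 0.12 (adjusted p = 0.165). The median of the 10 differences was 0.71, beside 0.01 over all genes. In sorted bulk cells, fewer cells of a type and less RNA per cell cannot be told apart. Leaving out any 1 library kept 9 or 10 genes past the adjusted p and *Psmb9* and *Nlrc5* as the 2 called, the paired-end liver library included (9 genes).

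**Figure D1:**
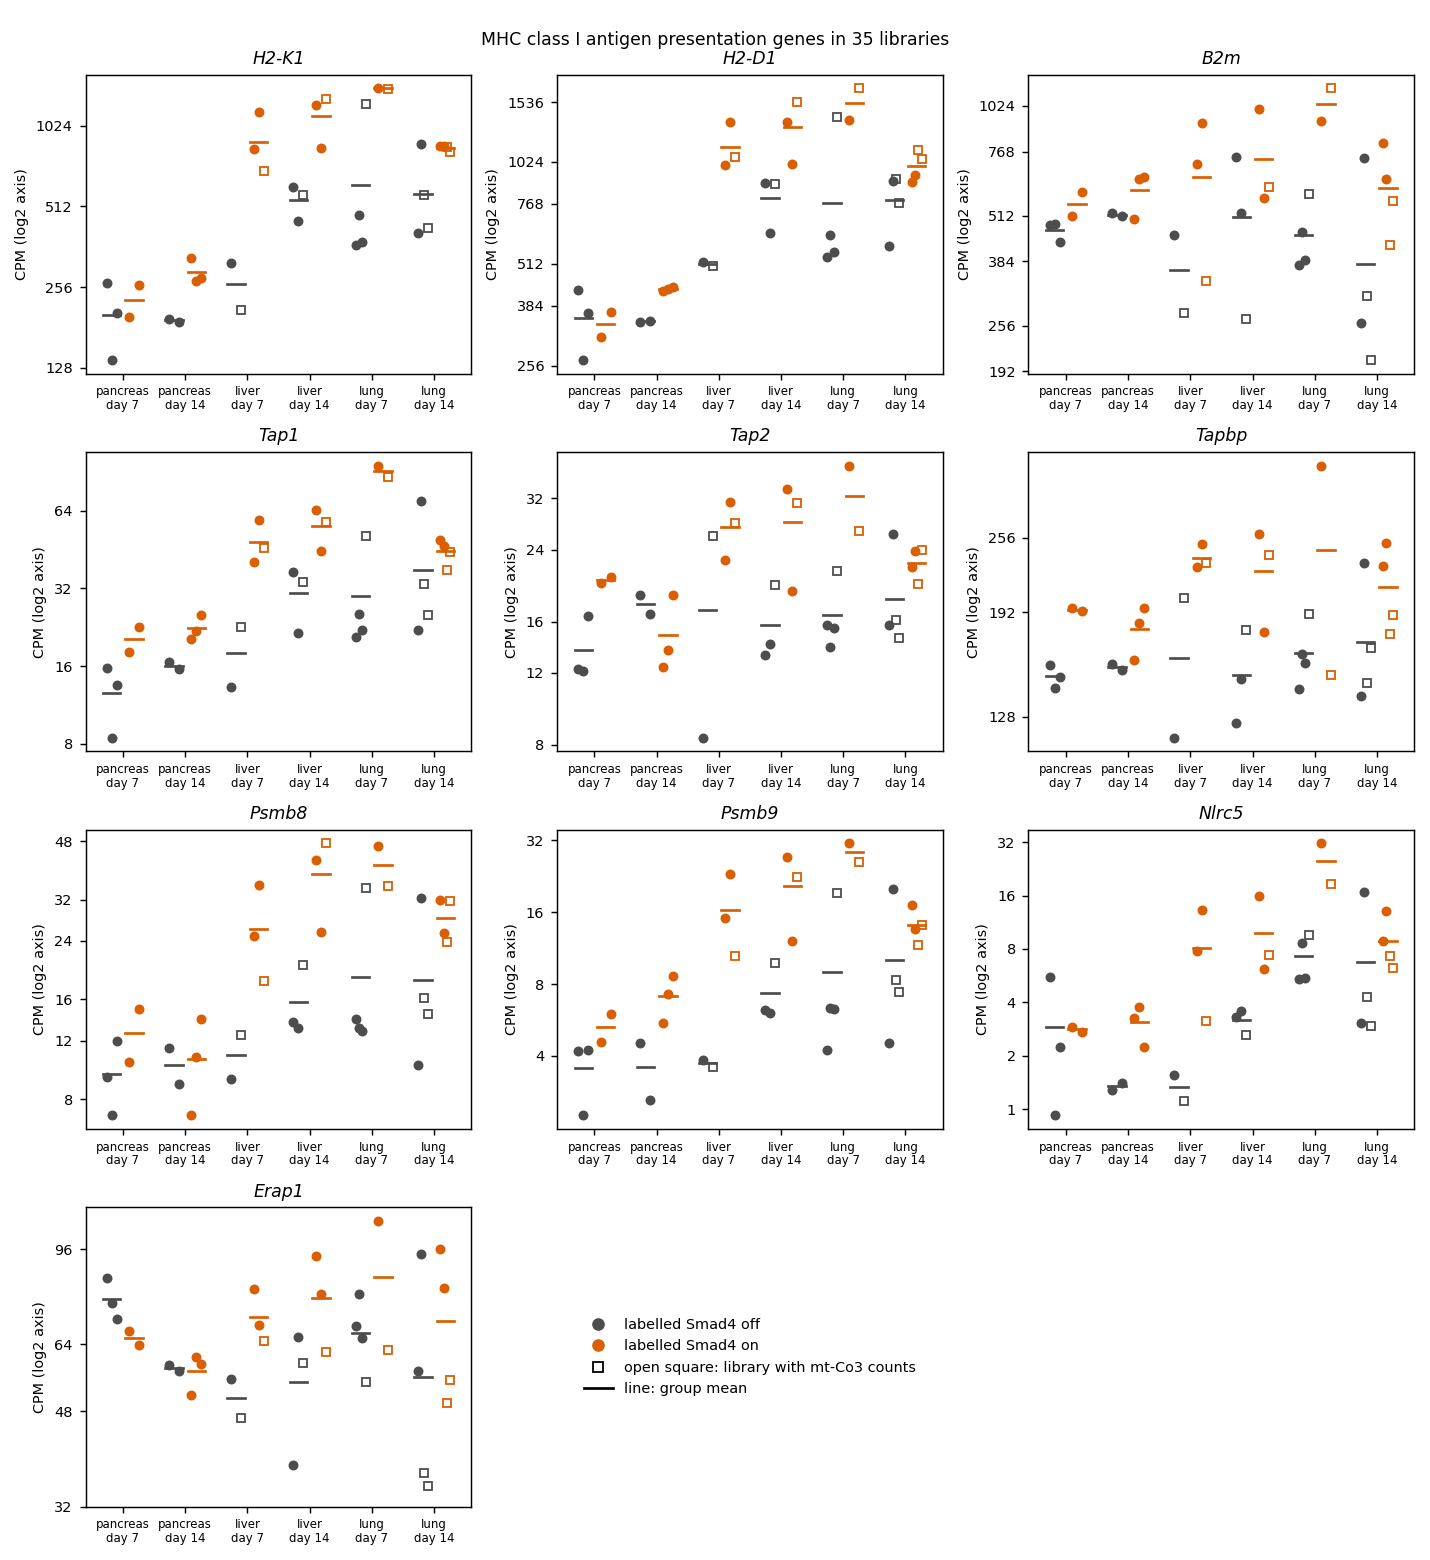
Level of each gene in each of the 35 libraries, in CPM on a log2 axis, by organ and day, with libraries labelled Smad4 off in grey, those labelled Smad4 on in orange, group means as lines and libraries with mt-Co3 counts as open squares. H2-K1 lies at 137 to 327 CPM in the pancreas and at 694 to 1285 CPM in liver libraries labelled on, and 1 library labelled off stands above the rest of its group in the lungs on each day.

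The heavy chains, which carry the peptide, had the highest levels per length after *B2m*. *H2-K1* in the pancreas was at 264, 137 and 206 CPM in the libraries labelled off of day 7 and at 194 and 190 CPM in those of day 14, and at 199 and 260 CPM (day 7) and 327, 270 and 278 CPM (day 14) in those labelled on. In the liver, those labelled off had 316 and 210 CPM on day 7 and 607, 453 and 563 CPM on day 14, and those labelled on had 836, 1148 and 694 CPM and 1225, 842 and 1285 CPM. In the lungs, those labelled off had 368, 475, 378 and 1232 CPM on day 7 and 406, 875, 564 and 426 CPM on day 14, and those labelled on had 1415 and 1407 CPM and 862, 861, 853 and 815 CPM. The liver libraries labelled on lay above all those labelled off on both days. The same order held for 27.1% of all genes on day 7 and 8.5% on day 14. In the lungs of day 14 a single library labelled off reached above all 4 labelled on. On average over the 6 comparisons *H2-K1* differed by 0.90 ± 0.15 (adjusted p = 9.12e-05) and *H2-D1* by 0.57 ± 0.11 (adjusted p = 0.00057). *H2-D1*, the other classical heavy chain of this haplotype, was at 266 to 436 CPM in the pancreas, 504 to 889 CPM in liver libraries labelled off and 1001 to 1540 CPM in those labelled on. The ratio of *H2-K1* to *H2-D1* per length was 0.573 ± 0.117 in the 18 libraries labelled off (SD) and 0.703 ± 0.107 in the 17 labelled on, with ranges that overlap.

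*B2m*, the light chain common to all class I molecules, was higher by 0.62 ± 0.17 in libraries labelled on (adjusted p = 0.00771). It lay at 206 to 740 CPM (median 458) in the 18 libraries labelled off and at 340 to 1146 CPM (median 644) in the 17 labelled on. The lowest value under each label came from a library with *mt-Co3* counts, and 6 of the 10 such libraries were below every library of their group that had no *mt-Co3* counts. The same held for 9 of the 10 in *Erap1*, 7 of 10 in *Nlrc5* and 1 of 10 in *H2-D1*. With a covariate for these libraries, 10 of the 10 genes passed an adjusted p of 0.05 in the averaged label difference, *Erap1* included.

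The transporter and its partner gave smaller values for *Tap2* and *Tapbp* than for *Tap1*. *Tap1*, a chain of the peptide pump, was at 8.44 to 70 CPM in libraries labelled off (median 22.1) and at 18.2 to 95.6 CPM in those labelled on (median 44.6), a difference of 0.89 ± 0.15 (adjusted p = 0.000101). *Tap2*, the other chain, differed by 0.52 ± 0.13 (adjusted p = 0.00348), and *Tapbp*, which encodes tapasin, by 0.44 ± 0.10 (adjusted p = 0.00195). All 3 had overlapping ranges between the labels over the whole series. *Tap2* ranged from 8.32 to 26.3 CPM in libraries labelled off and from 12.4 to 38.5 CPM in those labelled on.

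The immunoproteasome subunits replace constitutive ones when interferon acts, and both measured here were higher in libraries labelled on. *Psmb9* in the pancreas was at 4.17, 2.26 and 4.22 CPM (day 7) and 4.54 and 2.62 CPM (day 14) in libraries labelled off, and at 4.59 and 5.99 CPM and 5.51, 7.27 and 8.63 CPM in those labelled on. In the liver it was at 3.85 and 3.59 CPM and 6.24, 6.07 and 9.78 CPM labelled off, and at 15.1, 23.2 and 10.5 CPM and 27.4, 12.1 and 22.6 CPM labelled on. In the lungs it was at 4.22, 6.36, 6.26 and 19.2 CPM and 4.54, 20, 8.33 and 7.42 CPM labelled off, and at 31 and 26 CPM and 17.1, 13.7, 11.7 and 14.2 CPM labelled on. The groups of *Psmb9* did not overlap in any organ and day except the lungs of day 14. *Psmb8*, the β5i subunit, differed by 0.80 ± 0.17 (adjusted p = 0.000792). Against its constitutive partner *Psmb6*, *Psmb9* made up a ratio per length of 0.0256 ± 0.018 in libraries labelled off and 0.0583 ± 0.0355 in those labelled on, and *Psmb8* against *Psmb5* of 0.103 ± 0.0693 and 0.188 ± 0.131 (SD, n = 18 and 17). *Psmb10* against *Psmb7*, the remaining pair of inducible and constitutive subunits, stood at 1.34 ± 0.407 and 2.02 ± 0.741, above the other pairs at every site. These ratios were not tested and overlap between the labels. In each liver and lung group the ratio of *Psmb8* to *Psmb5* was lowest in the libraries with *mt-Co3* counts. In the lungs of day 7 labelled on, it was 0.0969 with such counts and 0.483 without. *Psmb8* itself was below every library of its group without *mt-Co3* counts in 3 of the 10 such libraries. Libraries with *mt-Co3* counts occurred under both labels, and they add to the spread of the pooled values of this pair. Their part in its difference between the labels was not tested.

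**Figure D2:**
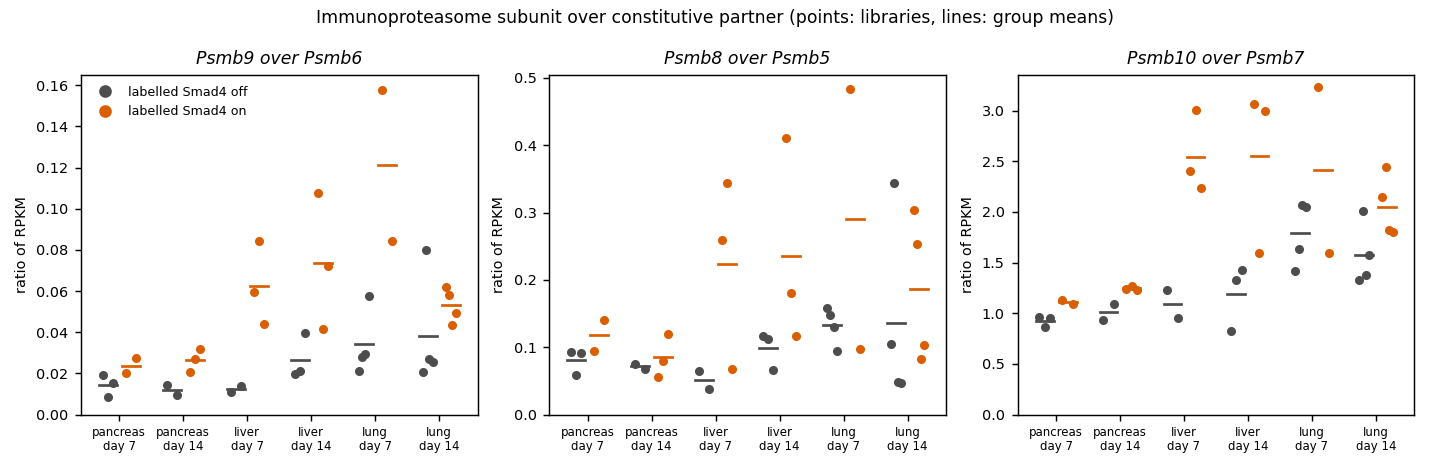
Ratio of RPKM of each immunoproteasome subunit to its constitutive partner in each library (points) with group means (lines), by organ and day, with libraries labelled Smad4 off in grey and on in orange. Psmb9 over Psmb6 stays between 0.00869 and 0.158, and Psmb10 over Psmb7 between 0.83 and 3.24. Psmb8 over Psmb5 is lowest in each liver and lung group in the libraries with mt-Co3 counts, which are not marked here.

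*Nlrc5*, the coactivator of class I promoters, had the lowest level and the widest spread. It was at 5.53, 0.925 and 2.23 CPM (day 7) and 1.29 and 1.41 CPM (day 14) in pancreas libraries labelled off, and at 2.93 and 2.71 CPM and 3.27, 3.75 and 2.25 CPM in those labelled on. In the liver the values were 1.55 and 1.11 CPM and 3.33, 3.59 and 2.61 CPM labelled off, and 7.82, 13.3 and 3.15 CPM and 15.9, 6.21 and 7.39 CPM labelled on. In the lungs they were 5.4, 8.62, 5.48 and 9.58 CPM and 3.08, 16.8, 4.27 and 2.94 CPM labelled off, and 31.4 and 18.6 CPM and 8.88, 13.1, 7.28 and 6.22 CPM labelled on. Labelled on libraries lay above labelled off ones without overlap in the liver on both days, in the lungs of day 7 and in the pancreas of day 14. The same held for 27.1% (day 7) and 8.5% (day 14) of all genes in the liver. It held for 5% in those lungs and 21.9% in that pancreas. *Erap1*, the trimming peptidase, stayed between 35 and 108 CPM in all libraries. In the pancreas of day 7 it was lower in labelled on than in labelled off libraries, as were 22.3% of all genes without overlap. Its values there were 67.6 and 63.8 CPM against 84.8, 76.2 and 71.3 CPM.

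Within a single organ and day, where 2 to 4 libraries stand on each side, edgeR called none of the 10 genes, a call needing both a fold change past 2 and an adjusted p below 0.05. Pancreas, liver and lungs had 1.33%, 0.444% and 0% of all genes called on day 7, and 4.64%, 0% and 0.0271% on day 14. The median difference on day 7 was nevertheless 1.13 in the liver, 1.155 in the lungs and 0.32 in the pancreas. On day 14 it was 0.80, 0.37 and 0.29. In the pancreas 7 of the 10 differences were positive on day 7 and 9 on day 14. The liver of day 7 had *Nlrc5* at 2.52 ± 0.73, *Psmb9* at 2.05 ± 0.43 (adjusted p = 0.0742) and *H2-K1* at 1.68 ± 0.35 (adjusted p = 0.0739). An unadjusted p under 0.05 was reached by 6 of the 10 genes there, beside 27.1% of all genes, by 8 in the liver of day 14, beside 9.68%, and by 5 in the lungs of day 7, beside 5.22%. It was reached by 1 in the lungs of day 14, beside 10.1%, by 3 in the pancreas of day 7, beside 23.1%, and by 5 in the pancreas of day 14, beside 28.6%. DESeq2, which the study used, called 6 of the 10 in the liver of day 7 with 10.1% of genes called higher, 3 in the liver of day 14 with 0.918%, 3 in the lungs of day 7 with 0.378%, 2 in the pancreas of day 14 with 4.35%, and none in the other 2 comparisons. In the pancreas of day 14, *H2-K1* (0.62 ± 0.10, adjusted p = 0.00746), *H2-D1* (0.34 ± 0.08, adjusted p = 0.0281) and *Tap1* (0.51 ± 0.14, adjusted p = 0.0461) passed edgeR's adjusted p without the fold, as did 6.6% of genes in that direction. That count went from 3 to 0 without either library labelled off, to 1 without replicate 2 or 3 labelled on, and to 7 without replicate 1 labelled on.

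The libraries labelled on lay above all those labelled off for 8 of the 10 genes in the liver of day 7, where 27.1% of genes did so, and for 6 in the liver of day 14, where 8.5% did. In the lungs they did so for 7 genes on day 7, beside 5% of all genes, and for none on day 14, beside 2.6%. In the pancreas they did so for 5 genes on day 7 and for 6 on day 14, beside 21% and 21.9% of all genes, and on day 7 *Erap1* lay below throughout, as did 22.3% of genes. Without replicate 4 labelled off, the lungs of day 7 gave a median difference of 1.57 in place of 1.155, and *Tap1* was then called at 2.06 ± 0.15 (adjusted p = 0.0311). Without replicate 2 labelled off, the lungs of day 14 gave a median of 0.77 in place of 0.37 and no call. Without the paired-end library, *Tap1* (1.76 ± 0.30, adjusted p = 0.0442) and *Tap2* (1.61 ± 0.28, adjusted p = 0.0468) were called in the liver of day 7, with a single library labelled off left, assumed to vary like the others. Without replicate 1 labelled off in its place, *H2-K1* was called at 2.07 ± 0.40 (adjusted p = 0.0252) and *Tap2* fell to 0.06 ± 0.25.

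**Figure D3:**
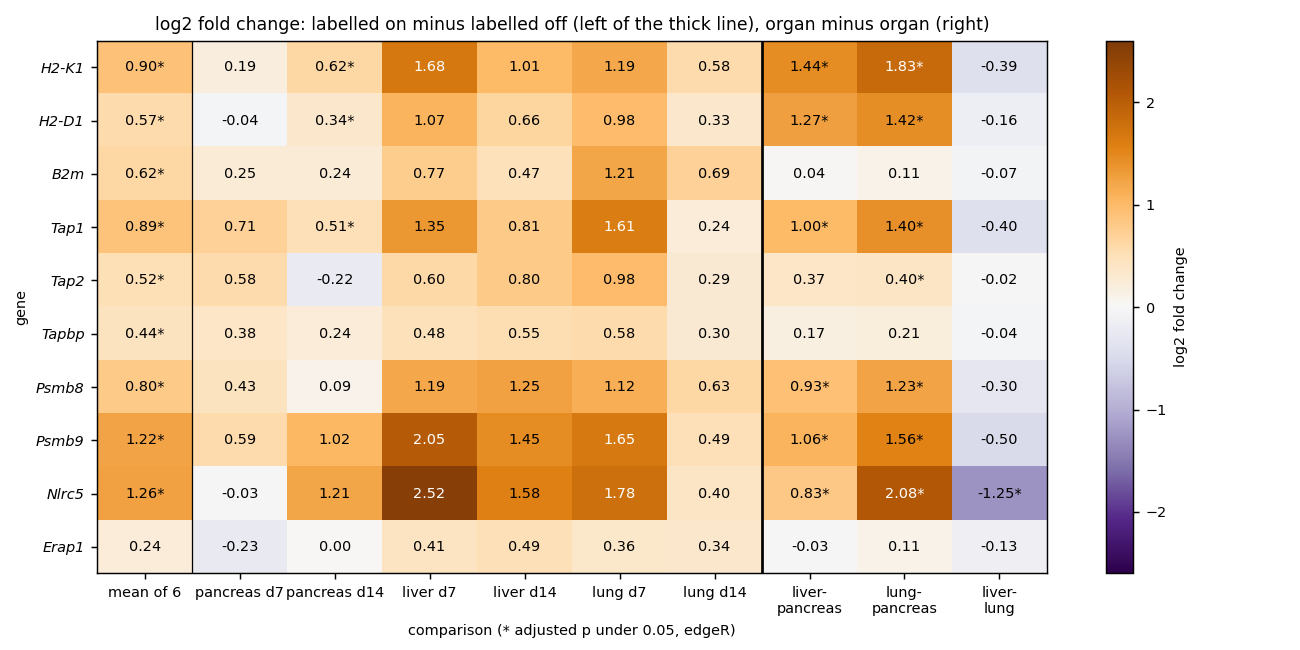
Log2 fold change of each gene, labelled on minus labelled off as the mean of 6 and for each organ and day, and organ minus organ, colored from purple (lower) to orange (higher), with an asterisk at an adjusted p under 0.05. The label differences of 9 genes pass in the mean of 6, and B2m and Erap1 stay between -0.03 and 0.11 in both comparisons of metastases with the pancreas, values that rise to 0.31 (B2m, liver) and 0.38 (Erap1, lungs) without the libraries with mt-Co3 counts.

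Metastases held more mRNA of most of the 10 class I genes than primary tumors, over both days and both labels with equal weight. Lungs were above the pancreas in 7 genes at an adjusted p under 0.05, and 6 of these passed the fold change as well, where 27.1% and 13.4% of all genes did so in that direction. These were *Nlrc5* (2.08 ± 0.33, adjusted p = 1.3e-05), *H2-K1* (1.83 ± 0.19, adjusted p = 4.08e-08), *Psmb9* (1.56 ± 0.26, adjusted p = 2.23e-05), *H2-D1* (1.42 ± 0.14, adjusted p = 2.82e-08), *Tap1* (1.40 ± 0.19, adjusted p = 1.27e-06) and *Psmb8* (1.23 ± 0.21, adjusted p = 2.74e-05). *Tap2* passed the adjusted p alone at 0.40 ± 0.16 (adjusted p = 0.0361). Leaving out any 1 library kept all 6 called.

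Liver metastases were above the pancreas in 6 genes at an adjusted p under 0.05, beside 25.6% of all genes, and 4 of them passed the fold change, beside 11.5%. Called were *H2-K1* (1.44 ± 0.19, adjusted p = 1.3e-06), *H2-D1* (1.27 ± 0.15, adjusted p = 1.88e-07), *Psmb9* (1.06 ± 0.26, adjusted p = 0.00172) and *Tap1*, which lay at the threshold of fold with 1.00 ± 0.19 (adjusted p = 0.000124). *Psmb8* (0.93 ± 0.21) and *Nlrc5* (0.83 ± 0.33, adjusted p = 0.041) passed the adjusted p only. The 4 calls became 2, the heavy chains, without pancreas labelled off replicate 2 or labelled on replicate 1 of day 7, without liver labelled on replicate 2 of day 7 or without pancreas labelled off replicate 2 of day 14. They became 3 without the paired-end library, when *Tap1* was under the fold, and 3 with DESeq2. Among libraries labelled off alone, none of the class I genes was called between liver and pancreas on day 7, and 2 were on day 14. Between liver and lungs, *Nlrc5* alone was called, at -1.25 ± 0.305 (adjusted p = 0.00437), beside 4.55% of genes called lower. Within day 14 and libraries labelled on it stood at 0.15 ± 0.54. All 10 differences of liver minus lung were negative, from -1.25 to -0.02, and 9 of them missed the adjusted p.

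*B2m* and *Erap1* did not pass an adjusted p of 0.05 between organs over all libraries. *B2m* differed by 0.04 ± 0.21 between liver and pancreas and by 0.11 ± 0.20 between lungs and pancreas, and *Erap1* by -0.03 ± 0.16 and 0.11 ± 0.15. The libraries with *mt-Co3* counts, all from liver or lungs, move these values. Without them *Erap1* was higher in lungs than in pancreas by 0.38 ± 0.11 (adjusted p = 0.00682), and *B2m* gave 0.31 ± 0.17 for liver and 0.18 ± 0.17 for lungs. With the covariate *Erap1* gave 0.17 ± 0.12 for liver and 0.29 ± 0.12 for lungs (adjusted p = 0.0497), and *B2m* 0.19 ± 0.19 and 0.35 ± 0.20. The 10 pancreas libraries had 434 to 656 CPM of *B2m* and 137 to 327 CPM of *H2-K1*, and the 14 lung libraries 206 to 1146 CPM and 368 to 1415 CPM. *B2m* thus overlapped between these organs throughout, whereas no pancreas library reached the lung libraries in *H2-K1*.

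Markers of other cell types differed between the organs in the same libraries. Of all genes, 11.5% were called higher in liver and 13.4% in lungs than in pancreas. All 7 acinar markers and all 7 fibroblast markers were called lower in both metastatic sites than in the pancreas. The acinar sum was 744.5 to 3473 CPM for pancreas, 4.93 to 409 CPM for liver and 2.94 to 13.2 CPM for lungs, and the fibroblast sum 8783 to 24250, 255 to 35780 and 159 to 1988 CPM. The 7 epithelial tumor cell markers summed to 2602 to 7890 CPM for pancreas, 3813 to 17690 CPM for liver and 6168 to 14440 CPM for lungs. The 7 markers of lung epithelium, all called higher in lungs than in pancreas, summed to 8.09 to 65 CPM for pancreas, 9.91 to 393 CPM for liver and 133 to 781 CPM for lungs, with *Sftpc* and *Sftpa1* at 0 in all pancreas libraries. The 10 leukocyte and macrophage markers were at 62.2 to 149, 16.7 to 209.5 and 37.9 to 368 CPM, with 1 called higher and 3 lower in the lungs and 4 called lower in the liver. Of 7 endothelial markers 5 were called higher in lungs and 3 lower in liver, and of 6 hepatocyte markers tested 4 were called higher in lungs and 6 in liver, each against pancreas. The 7 lymphocyte and NK markers summed to no more than 7.03 CPM in any library, with *Cd3e* at 0 in all pancreas libraries, and the 5 of them tested were called higher in lungs than in pancreas. Their part in the class I differences was not tested.

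Marker lists were also compared between the labels, where 12.8% of all genes were higher at an adjusted p under 0.05. In the averaged label difference, 2 of 7 epithelial, 1 of 10 leukocyte, 3 of 5 lymphocyte and NK, 2 of 6 hepatocyte and 1 of 7 lung epithelial markers tested were higher at an adjusted p under 0.05, 2 of 7 acinar markers were lower, and no fibroblast, endothelial or erythroid marker passed. Several markers could hardly pass, as whole groups had 0 counts of them and their SE was 26.4 to 15671. These were *Cpa1*, *Cela2a*, *Pnlip* and *Ctrb1* of the acinar markers, *Sftpa1*, *Scgb1a1*, *Lamp3*, *Sftpc* and *Sftpb* of the lung epithelial markers, *Fgb* and *Nkg7*. The shares of these lists are therefore low in part because such markers were counted as tested. The lung epithelial sum in the liver was 9.91 to 121 CPM in libraries labelled off and 149 to 393 CPM in those labelled on, without overlap. In the pancreas it was 8.09 to 21.3 and 20 to 65 CPM, and in the lungs 133 to 501 and 138 to 781 CPM. Among the lung epithelial markers, *Sftpd* alone passed in the averaged label difference, at 1.54 ± 0.20 (adjusted p = 4.09e-06). *Ager* gave 0.18 ± 0.19 (adjusted p = 0.559). How much each marker gave to the difference of the sum was not tested. The lymphocyte and NK sum was 0.185 to 5.12 CPM in libraries labelled off and 0.431 to 7.03 CPM in those labelled on, and the leukocyte sum 16.7 to 344 and 38.6 to 368 CPM. The part of these markers in the label difference was not tested.

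Day and the difference of label response between organs gave no class I call with edgeR or DESeq2. Day 14 minus day 7 had 0% of all genes called in each organ, and of the 10 genes none in pancreas or lungs and 2 in the liver had an unadjusted p under 0.05, beside 11.4%, 6.39% and 8.88% of all genes. In the liver 8 of the 10 differences between days were positive (median 0.45) and in the lungs all 10 were negative (median -0.32). The label difference of the liver exceeded that of the pancreas on day 7 in all 10 genes, by a median of 0.79 and up to 2.63 in *Nlrc5*, with 3 of the 10 at an unadjusted p under 0.05, beside 20.5% of all genes, and the lowest adjusted p at 0.0931, where 5.08% were called. Lungs exceeded the pancreas on day 7 by a median of 0.94, with 1 of 10 at an unadjusted p under 0.05, beside 10% of all genes, and 0.0114% called. Liver and lungs differed on day 7 by a median of 0.14, with none of the 10 at an unadjusted p under 0.05, although 27.5% of all genes were and 11.6% were called. On day 14 the 3 differences of response had 0% of genes called, and 2 of the 10 genes had an unadjusted p under 0.05 in liver against pancreas, beside 4.13% of all genes, and none in liver against lungs or lungs against pancreas, beside 3.97% and 3.46%. A label difference of class I genes that passed in one organ and missed in another is therefore not shown to differ between them.

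The other genes of the pathway were counted in lists. Of all genes tested, 12.8% were higher by label, 25.6% in liver and 27.1% in lungs against pancreas at an adjusted p under 0.05. These shares stand beside every list below, and no list was tested against them. Of 15 other class I and class I-like heavy chains tested, 8 were higher in libraries labelled on at an adjusted p under 0.05 and none lower (median 0.43). *H2-Q4* rose by 0.84 ± 0.15 (adjusted p = 0.000243), *Cd1d1*, which presents lipids, by 1.09 ± 0.22 (adjusted p = 0.00065), *H2-Q6* by 1.35 ± 0.35 (adjusted p = 0.00609) and *Hfe*, a regulator of iron uptake, by 0.43 ± 0.12 (adjusted p = 0.0124). Lungs against pancreas gave 9 higher and 3 lower, with *H2-Q7* at 5.45 ± 0.63 and *H2-Q6* at 4.23 ± 0.50, and the neonatal Fc receptor gene *Fcgrt* lower, at -1.51 ± 0.21. Liver against pancreas gave 6 higher and 2 lower, with *H2-Q7* at 2.80 ± 0.58. The genes of the Q region resemble each other closely, so that the split of reads among them is uncertain.

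The rest of peptide supply did not move as a group. Of 21 genes for constitutive and inducible proteasome subunits, cytosolic peptidases, chaperones and the translocon, 3 were higher and 1 lower in libraries labelled on (median -0.03), 4 higher and 3 lower in liver against pancreas and 4 higher and 6 lower in lungs against pancreas. A list of interferon receptors, kinases and transcription regulators also held the ligand gene *Tgfb1* and *Susd6*, *Wwp2* and *Tmem127*. Of its 30 genes tested, 11 were higher and 2 lower in libraries labelled on (median 0.05). Among them *Rfx5*, a subunit of the factor that binds the X box of MHC promoters, rose by 0.57 ± 0.09 (adjusted p = 3.39e-05), *Ifngr1*, a chain of the interferon-γ receptor, by 0.57 ± 0.09 (adjusted p = 8.1e-05) and *Irf9* by 0.52 ± 0.10 (adjusted p = 0.000419), while *Tgfb1* had -0.73 ± 0.15 (adjusted p = 0.00054). The genes of interferon-γ itself (*Ifng*) and interferon-β (*Ifnb1*), named after their values were seen, were the list's untested pair, at 0 in 32 and in 19 of the 35 libraries and at most 0.716 and 1.38 CPM.

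Interferon targets were counted in 2 lists, beside 12.8% of all genes higher by label, 25.6% higher in liver and 27.1% higher in lungs than in pancreas at the same adjusted p. Of 16 interferon-γ response genes, 10 were higher and none lower by label (median 0.86), with the GTPases *Irgm1* (0.86 ± 0.16), *Irgm2* (0.86 ± 0.17) and *Igtp* (0.92 ± 0.18) and the invariant chain gene *Cd74* (1.21 ± 0.30). Of these 16 genes, 13 were higher in lungs than in pancreas, with *Ido1* at 3.97 ± 0.64, *Cxcl9* at 4.17 ± 0.77, *Gbp5* at 2.73 ± 0.45 and *Gbp7* at 1.07 ± 0.17, and 1 was higher in liver than in pancreas. In liver minus lung, 11 of the 16 were lower, beside 9.36% of all genes, and 1 higher, with *Gbp2* at -1.72 ± 0.26 and *Iigp1* at -2.90 ± 0.49. Of 18 type I interferon response genes, 12 were higher by label and none lower, with *Cmpk2* at 1.39 ± 0.21, *Oas1a* at 1.14 ± 0.20, *Oas2* at 1.54 ± 0.32 and *Irf7* at 0.99 ± 0.21. Here 6 were higher and 1 lower in liver than in pancreas, 5 higher and 1 lower in lungs than in pancreas, shares near those of all genes, and 3 higher and none lower in liver than in lungs, where 11% of all genes were higher. The lists were not tested against each other.

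Of 5 genes of class II and its loading, 4 were higher by label at an adjusted p under 0.05, beside 12.8% of all genes. Their sum was 5.82 to 110 CPM in libraries labelled off and 21.6 to 444 CPM in those labelled on. The 2 lung libraries labelled on of day 7 differed widely, at 43.3 and 444 CPM. By label, *H2-Eb1* gave 1.13 ± 0.27, *H2-Ab1* 1.02 ± 0.36, *H2-DMb1* 1.12 ± 0.26 and *H2-DMa* 0.76 ± 0.23. Ligands seen by NK and T cells went both ways. Of 12, 3 were higher and 4 lower by label, with *Ulbp1*, a ligand of the activating receptor NKG2D, at -1.19 ± 0.12 (adjusted p = 1.74e-07) and *Cd276* at -0.62 ± 0.08 (adjusted p = 2.55e-06), while *Nectin2* rose by 0.52 ± 0.08 (adjusted p = 4.21e-05) and *Vtcn1* by 0.97 ± 0.18 (adjusted p = 0.000294). *Ulbp1* was also lower in lungs than in pancreas (-1.37 ± 0.14) and in liver than in pancreas (-0.99 ± 0.15).

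**Figure D4:**
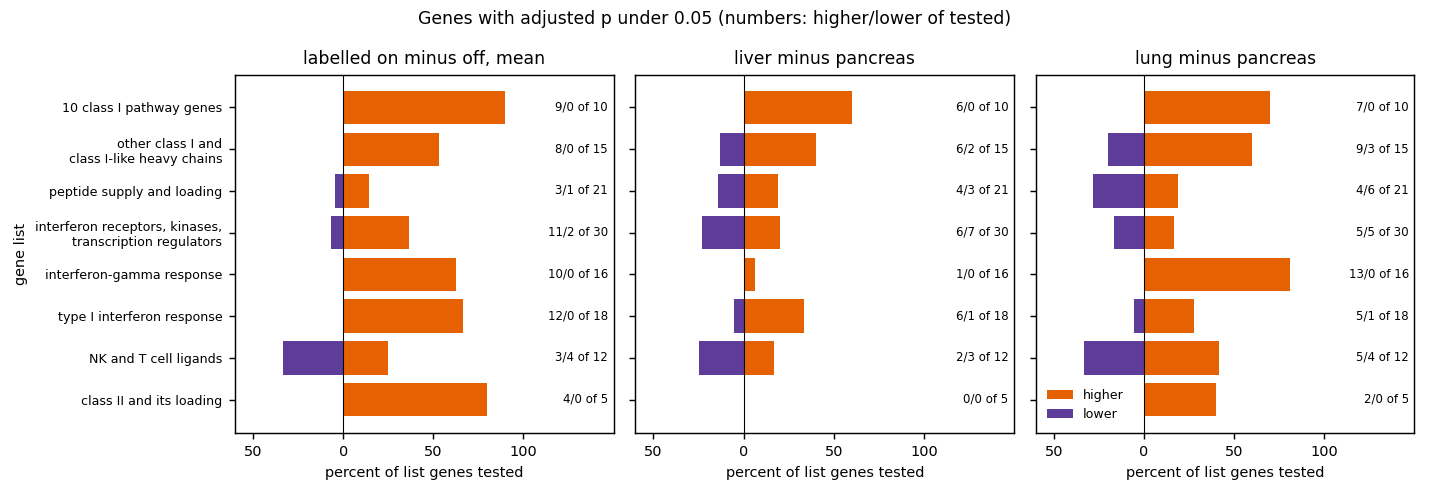
Percent of the tested genes of each list that were higher (orange, to the right) or lower (purple, to the left) at an adjusted p under 0.05, for labelled on minus labelled off averaged over 6 comparisons and for each metastatic site minus the pancreas. The class I pathway genes have 9, 6 and 7 of 10 higher and none lower, and the interferon-gamma response genes have 10, 1 and 13 of 16 higher.

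The 10 genes shared much of their variation over the 35 libraries, which also share organ and label. Pearson's r of log2 CPM was 0.98 between *H2-K1* and *H2-D1*, 0.95 between *Tap1* and *Psmb9* and 0.95 between *Psmb8* and *Psmb9*. After subtraction of the group means it was 0.88, 0.85 and 0.93. The lowest r was 0.09, of *Erap1* with *H2-D1*. *Erap1* reached 0.54 with *B2m*, with 0.37 for *Tap2*, 0.52 for *Nlrc5* and 0.54 for *Tapbp*, and *B2m* with *H2-D1* gave 0.35. The 8 other genes whose log2 CPM followed the mean of the standardized 10 most closely, among 17537, were *H2-Q4* (0.91), *Tapbpl* (0.88), *Batf2* (0.87), *Scly* (0.87), *Gm11131* (0.86), *Pglyrp2* (0.86), *Irgm1* (0.85) and *Irgm2* (0.85). Within groups the same coefficients were 0.77, 0.47, 0.54, 0.78, 0.68, 0.71, 0.67 and 0.82. The summed markers gave 0.68 for lung epithelium, 0.51 for epithelial tumor cells, 0.51 for lymphocytes and NK cells, 0.48 for hepatocytes, 0.19 for leukocytes, -0.15 for endothelium, -0.33 for erythroid cells, -0.53 for fibroblasts and -0.58 for acinar cells, and within groups none of these left the range from -0.26 to 0.19. The sum of class II genes gave 0.46 and 0.64 within groups.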

How the data were processed

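The authors deposited raw counts per gene, made from 75 bp reads of poly(A) RNA with, per the labels, FastQC 0.11.5, Trimmomatic 0.36, STAR 2.5.3a and featureCounts 1.6.3 on GRCm38, and not normalized. Treatment of strand and of reads with several matches is not given in the sources used here. Groups came from the sample titles, which number the mice. Library totals are in the text. 0 pairs of libraries were identical. A further allele that all libraries share is not reported here.

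Counts were filtered with filterByExpr (minimum count 10, minimum total 15), TMM-scaled and fitted by edgeR 4.0.16 (R 4.3.3, robust quasi-likelihood). Label differences used the libraries of each organ and day, and all other contrasts 1 fit of 12 groups. Calls needed a fold change past 2 with an adjusted p below 0.05, as in the study. SE is the log2 fold change over the root of F. Correlations used log2(CPM + 0.5). The fits were tested on simulated data. Tables and figures used Python 3.11.15 and matplotlib 3.10.9.

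The genes, the lists and the tests were chosen with earlier results of these data known. All 10 genes are named in each contrast, up to 4 genes of a list by lowest p where it has called genes, and 8 genes of like pattern. Alternatives were DESeq2 1.42.0 and its size factors, no filter, 10 counts in every library, no fold threshold, each library left out, the mouse number as a block, a covariate for *mt-Co3* and, chosen after seeing the data, the libraries without it. The study randomized mice to stay on Dox or not, so that a number found under both labels does not name the same mouse. Libraries with the same number deviated together in the lungs of day 14 (r = 0.47, 0.51, 0.59 and 0.53 for 4 pairs). The number served as a block there by the data alone. Numbers 3 and 4 there have *mt-Co3* counts under both labels, so that number and *mt-Co3* cannot be told apart. The block gave no class I call there either.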

Additional observations from a re-analysis of the deposited data

Results flagged for a closer look

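Of 30 sets of 4 lung libraries (10 genes in 3 groups), 7 had a library whose gap to its nearest neighbor exceeded Dixon's 95% critical value. About 1 in 20 such sets would pass by chance, and the genes of a library are not independent. Among lung libraries labelled off on day 7, replicate 4 was the highest for *H2-K1* (1232 CPM, next 475), *H2-D1* (1386 CPM, next 620), *Tap1* (50.9 CPM, next 25.4), *Psmb8* (34.6 CPM, next 14) and *Psmb9* (19.2 CPM, next 6.36). Among those of day 14, replicate 2 was the highest for *Tap2* (26.3 CPM, next 16.1) and *Nlrc5* (16.8 CPM, next 4.27). The first of these libraries has *mt-Co3* counts and the second has none.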

How the results depend on the processing

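Of the counts of class I genes called, 144 kept within 1.5 times the reported count under the alternatives and 18 did not. In the liver of day 7 the count of 0 became 6 with DESeq2, 3 without a filter, 1 with the *mt-Co3* covariate and 6 in a single fit of 12 groups, and lay at 0 to 2 when each library was left out. In the lungs of day 7 it became 3 with DESeq2 and 0 to 1 when each library was left out, and in the liver of day 14 3 with DESeq2. In the pancreas of day 14 it became 2 with DESeq2, 1 without a filter, 1 with 10 counts required, 3 without the fold threshold and 0 to 2 with a library left out. The averaged label difference had 9 without the fold threshold. Liver against pancreas gave 2 to 5 with a library left out, 0 in libraries labelled off of day 7 alone and 2 in those of day 14. Lungs against pancreas gave 3 in libraries labelled on of day 14, and liver against lungs 0 there, 0 in those labelled off of day 14 and 0 in those labelled on of day 7. The excess of the liver's label difference over the pancreas on day 7 gave 1 with the *mt-Co3* covariate and 0 to 2 with a library left out. The causes were not tested, beyond the fewer libraries of single groups.

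Of the log2 fold changes, 15 changed sign, all small. *Erap1* in the pancreas of day 14 went to -0.0031 (DESeq2), -0.0029 (its size factors), -0.030 (no filter), -0.043 (replicate block) and -0.018 (single fit), and in liver against pancreas to 0.0041 (no filter), 0.17 (covariate) and 0.043 (libraries without *mt-Co3*). In liver against lungs *Tap2* went to 0.015 and *Tapbp* to 0.00021 without a filter, and *H2-D1* to 0.045 and *B2m* to 0.13 without *mt-Co3* libraries. With the mouse number as a block, *H2-D1* and *Nlrc5* went to 0.010 and 0.24 in the pancreas of day 7 and *Psmb8* to -0.19 in that of day 14. With a library left out, the ranges that crossed 0 were, in the pancreas of day 7, -0.032 to 0.44 for *H2-K1*, -0.22 to 0.13 for *H2-D1* and -0.46 to 0.86 for *Nlrc5*, and in that of day 14, -0.056 to 0.065 for *Erap1* and -0.18 to 0.30 for *Psmb8*. In the lungs of day 7 they were -0.045 to 0.67 for *Erap1* and -0.070 to 1.02 for *Tapbp*. For liver against pancreas they were -0.085 to 0.12 for *B2m* and -0.090 to 0.0082 for *Erap1*, for lungs against pancreas -0.027 to 0.15 for *B2m*, -0.050 to 0.18 for *Erap1* and -0.0057 to 0.32 for *Tapbp*, and for liver against lungs -0.20 to 0.065 for *B2m*, -0.28 to 0.097 for *Tap2* and -0.17 to 0.12 for *Tapbp*.

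Outside the lungs of day 14, libraries of the same number were not shown to deviate together (r from -0.31 to 0.54). The replicate block gave 3 calls in the averaged label difference against 2, and the reported counts in the other comparisons. The highest of these r, 0.54, was of number 3 in the liver of day 14, as high as in the lungs. That number has *mt-Co3* counts under both labels, and numbers 1 and 2 there had r of 0.083 and 0.089. With 2 to 4 libraries a group, the number of mice limits the precision. At 3 counts, the floor lies below the lowest *Nlrc5* value of 0.925 CPM.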
